A study of Mus musculus with 12 samples.

Results

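Gene counts from nasal tissue of mice given KDP20 were compared between day 10 and day 5. The comparison used 8 of the 12 libraries of the series, 4 collected at day 10 (replicates 1, 2, 3 and 5) and 4 at day 5 (replicates 5, 6, 7 and 8), chosen by their labels. All mice were C57BL/6 males of 6 weeks, and the labels name no altered allele. The series title names diesel particles, and the labels give the agent by the code KDP20 and the cell type as "mouse nasal epithlium". A vehicle group (PBS, 4 libraries, labelled day 10) supplied levels beside the KDP20 values and shared in the estimate of spread, but was not compared here. Duration of exposure and day of collection differ together between the 2 KDP20 groups and cannot be told apart, since no vehicle library carries the label day 5. Because the labels do not tie each library to its own mouse, the p-values reflect variation between these samples, which may be technical. In bulk tissue, fewer cells of a type and less RNA per cell cannot be told apart either.

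The nasal lining combines respiratory epithelium, in which basal cells renew ciliated and secretory cells, with olfactory epithelium, whose neurons and supporting cells are replaced from basal stem cells throughout life. Replication-dependent histone genes are transcribed while DNA is copied, and genes of the mitotic kinesins, cyclins and condensins peak just before division, so both groups are common readouts of dividing cells. Bowman and other nasal glands secrete lipocalins, odorant-binding proteins and mucins onto the surface.

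Each row of the count table carries the name of 1 gene, but the name need not say which RNA was counted. Among 2098 non-coding rows whose exons overlapped a protein-coding gene on the other strand, with at least 100 counts in the pair, 1637 rows (78.0%) held more counts than the coding gene's own row. The strand of the counted RNA is not settled by the sources used here. A row is therefore called "opposite" a gene when the 2 lie on different strands and share at least 50 exonic bases, and is named with that gene. Levels are CPM, counts scaled to a common library total with edgeR's TMM factors, with means ± SD over 4 libraries. Values by library stand in the order of replicates 1, 2, 3 and 5 for day 10 and replicates 5, 6, 7 and 8 for day 5. A row was called when the edgeR quasi-likelihood test gave a Benjamini-Hochberg adjusted p under 0.05 over all 13181 tested rows, and log2 fold changes are day 10 over day 5.

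Some measures of the libraries themselves set day 10 replicates 2, 3 and 5 apart, though none passed the adjusted threshold of the permutation tests below. Depth was 1658420 to 2036661 counts at day 10 and 2028315 to 2425920 at day 5, so that 3 counts, the limit a count of 0 allows, amounted to 1.24 to 1.81 CPM of the unscaled totals. The row CT010467.2, which GENCODE M21 does not hold, took 11.2%, 25.5%, 17.9% and 22.9% of counts at day 10, against 11.2%, 12.6%, 9.69% and 10% at day 5. Replicate 1 was the one day 10 library inside the day 5 range. The slope of levels on GC content, in log2 CPM per 10 percentage points, was -0.048, 0.351, 0.192 and 0.267 at day 10 and -0.027, -0.048, -0.115 and -0.056 at day 5. Both measures missed the threshold of exact two-sided permutation tests (p 0.0571, adjusted 0.0714 over 5 measures). Rows opposite any gene held 60.4% ± 4.94 of counts at day 10 and 69.0% ± 0.598 at day 5, and the exact permutation p of 0.0286 was the smallest that 4 against 4 libraries can give (adjusted 0.0714). Day 10 replicates 2, 3 and 5 thus stood apart, with scores of 62.4, 39.1 and 44.7 on a first principal component that held 26.5% of the variance, while replicate 1 (-14.6) lay within the range of the day 5 and vehicle libraries (-18.6 to -13.5). For that reason key results below are also given with replicate 1 as the only day 10 library, in a fit where the lone sample is assumed to vary like the other groups.

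**Figure D1:**
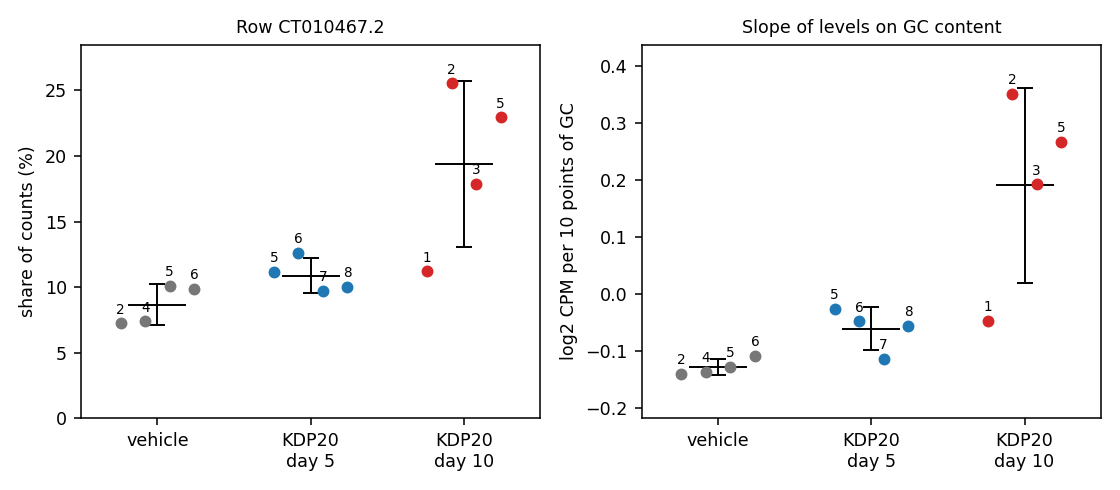
Share of counts in the row CT010467.2 (left, percent) and slope of levels on GC content (right, log2 CPM per 10 points of GC) for each of the 12 libraries, with replicate numbers, group means and SD bars. Day 10 replicates 2, 3 and 5 lie above all other libraries in both panels, while day 10 replicate 1 (11.2% and -0.048) sits with day 5.

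Rows opposite histone genes were lower at day 10. Of 74 listed histone genes, 19 opposite rows were tested, and 14 were called lower and 0 higher (edgeR, with 15 lower and 0 higher at an unadjusted p under 0.05, and 14 lower by both DESeq2 and limma-voom). Over all tested rows 10.1% were called, 5.49% lower and 4.66% higher, and the share called lower was 13.6% in rows opposite a protein-coding gene. The 19 rows had a median log2 fold change of -0.87, beside 0.01 over all tested rows and -0.08 over rows opposite a protein-coding gene, and 18 of them were below 0. In 15 of the 19 the groups did not overlap with day 10 lower, against 6.76% of all tested rows.

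The sequence just before the start of such genes is shown for 3 genes whose opposite rows fell, a histone and a pair of mitosis genes. Each is the 180 bases before the RefSeq start on GRCm38.p6, plus strand for all 3, in lower case. Capitals mark CCAAT or its reverse complement ATTGG, the box bound by the factor NF-Y, and TTTGAA or its reverse complement TTCAAA, the core of the cell cycle homology region. They lie at chr13:23533695-23533874 for Hist1h2af (H2ac10 in RefSeq), chr5:45669745-45669924 for Ncapg and chr7:80294271-80294450 for Prc1.
Hist1h2af: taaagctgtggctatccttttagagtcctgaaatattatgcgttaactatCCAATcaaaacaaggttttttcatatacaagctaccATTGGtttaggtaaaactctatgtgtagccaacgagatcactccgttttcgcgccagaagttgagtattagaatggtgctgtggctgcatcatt
Ncapg: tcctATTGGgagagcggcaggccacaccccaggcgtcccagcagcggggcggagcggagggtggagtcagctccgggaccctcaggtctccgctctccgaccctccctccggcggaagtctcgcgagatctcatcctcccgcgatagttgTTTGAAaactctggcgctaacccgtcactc
Prc1: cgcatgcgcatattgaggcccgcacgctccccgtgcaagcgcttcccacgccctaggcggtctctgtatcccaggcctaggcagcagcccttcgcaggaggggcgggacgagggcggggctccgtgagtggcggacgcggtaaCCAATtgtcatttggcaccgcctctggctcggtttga
Of 15 histone genes opposite a row called lower, 13 were in the RefSeq table, and 11 of these (84.6%) held CCAAT on either strand, against 28.2% of 27025 promoters of the same length. Of 6 mitosis genes opposite a called row, 4 were in the table, all 4 held CCAAT and 3 held TTTGAA on either strand (11.3% of all promoters). TATAAA or its reverse complement was in 3 of the 13 histone promoters and 0 of the 4 mitosis promoters, against 9.47% of all. The 3 motifs are different words, though matches can share end letters. A match describes the letters and is not a bound site, and the shown genes and motifs were chosen after the values were seen. Promoters of listed genes whose opposite rows were not called were not read. Whether these shares go with the falls was therefore not tested.

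Gm44297, a predicted microRNA row of 141 bases (chromosome 13, 23534114 to 23534254, minus strand, GENCODE M21), lies wholly opposite Hist1h2af, which encodes an H2A core histone. It held 61.2, 71.4, 54.6 and 78.2 CPM at day 10 and 158, 132, 140 and 180 CPM at day 5, so the lowest day 5 library was above every day 10 library. Its log2 fold change was -1.20 (SE 0.16, edgeR adjusted p 0.000346), and vehicle stood at 45.3 ± 6.64 CPM. With replicate 1 as the only day 10 library the value was -1.32 (edgeR adjusted p 0.067, not called), and with the share of CT010467.2 as a covariate it was -1.40 (SE 0.22, adjusted p 0.00944).

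The row 4930558J22Rik (chromosome 13, 23755822 to 23757620, minus strand), opposite the H4 core histone gene Hist1h4b, held 44.2, 61.1, 50.2 and 59.4 CPM at day 10 and 124, 102, 111 and 132 CPM at day 5. Here too the groups were apart, and the day 10 mean of 53.7 ± 7.94 CPM lay beside 50.3 ± 5.06 in vehicle. The log2 fold change was -1.13 (SE 0.16, edgeR adjusted p 0.000368), -1.41 from replicate 1 alone and -1.38 with the covariate (adjusted p 0.00944). These 2 rows were the only calls left of all tested rows once the CT010467.2 share entered the model (edgeR, 1356 rows at an unadjusted p under 0.05).

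Gm20628 (chromosome 3, 96267075 to 96270289, minus strand) lies opposite Hist2h3b and Hist2h2bb, an H3 and an H2B gene. Its levels were 447, 281, 292 and 288 CPM at day 10 and 722, 632, 668 and 854 CPM at day 5, with replicate 1 the highest of the day 10 libraries. The log2 fold change was -1.13 (SE 0.16, edgeR adjusted p 0.000368), and -0.68 from replicate 1 alone.

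Gm44454, opposite the H2A gene Hist1h2ak on chromosome 13 (21753445 to 21753582, plus strand), held 86.9, 110, 94.8 and 130 CPM at day 10 and 203, 156, 180 and 228 CPM at day 5. It fell by 0.87 on the log2 scale (SE 0.15, edgeR adjusted p 0.00202), and the day 10 mean of 105 ± 18.8 CPM stood beside 97.8 ± 9.47 in vehicle. The steepest fall was in the row opposite Hist1h2ag, Gm44486, with 7.72, 4.12, 3.77 and 0 CPM at day 10 against 19.5, 16.4, 16.8 and 20.2 at day 5 (-2.18, SE 0.46, edgeR adjusted p 0.00488). Its day 10 counts were 15, 6, 6 and 0, so the size of that fall is poorly fixed.

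Other rows opposite H2A genes of the same chromosome 13 cluster were called lower, those of Hist1h2an (-1.51), Hist1h2ae (-1.34), Hist1h2ab (-1.25) and Hist1h2ac (-1.19). So were rows opposite H2A genes elsewhere, Hist2h2aa2 (-0.73), Hist2h2aa1 (-0.72) and Hist3h2a (Gm44313, also opposite Trim17, -0.67). The variants H2afx, whose product marks broken DNA, and the linker histone gene H1fx had smaller falls in their opposite rows (-0.57 and -0.44). Rows opposite Hist1h2ai (-1.07), Hist2h2ac (-0.27), H2afy (-0.25), H1f0 (-0.04) and Hist2h2ab (0.22) were not called. H2A genes are near-identical copies, and the counting could have split or dropped their reads, so the single values are uncertain and the rows are not independent of each other.

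Averaged over the 19 rows, the level was 6.02, 5.86, 5.74 and 5.87 log2 CPM at day 10, 6.78, 6.61, 6.52 and 6.96 at day 5, and 5.68 to 5.98 in vehicle. All 4 day 10 libraries lay below all 4 day 5 libraries, and replicate 1, which had the low CT010467.2 share, was 6.02. With replicate 1 as the only day 10 library the median log2 fold change was -0.75 with 18 of 19 rows below 0, and 0 of the rows were called, as for all other rows in that fit (edgeR, 0 of 15793, with 1142 at an unadjusted p under 0.05). After a GC correction of each library 14 rows were called lower and the median was -0.92. The 14 called rows had a median GC content of 66.7%, above the 50% of all tested rows. By their own rows, 18 histone genes gave 1 call, Hist1h1d, a linker histone (5.06 ± 1.78 against 14.7 ± 7.80 CPM, -1.49, edgeR adjusted p 0.0377, with overlap between the groups), and a median of -0.25. Over all tested rows 5.49% were called lower.

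**Figure D2:**
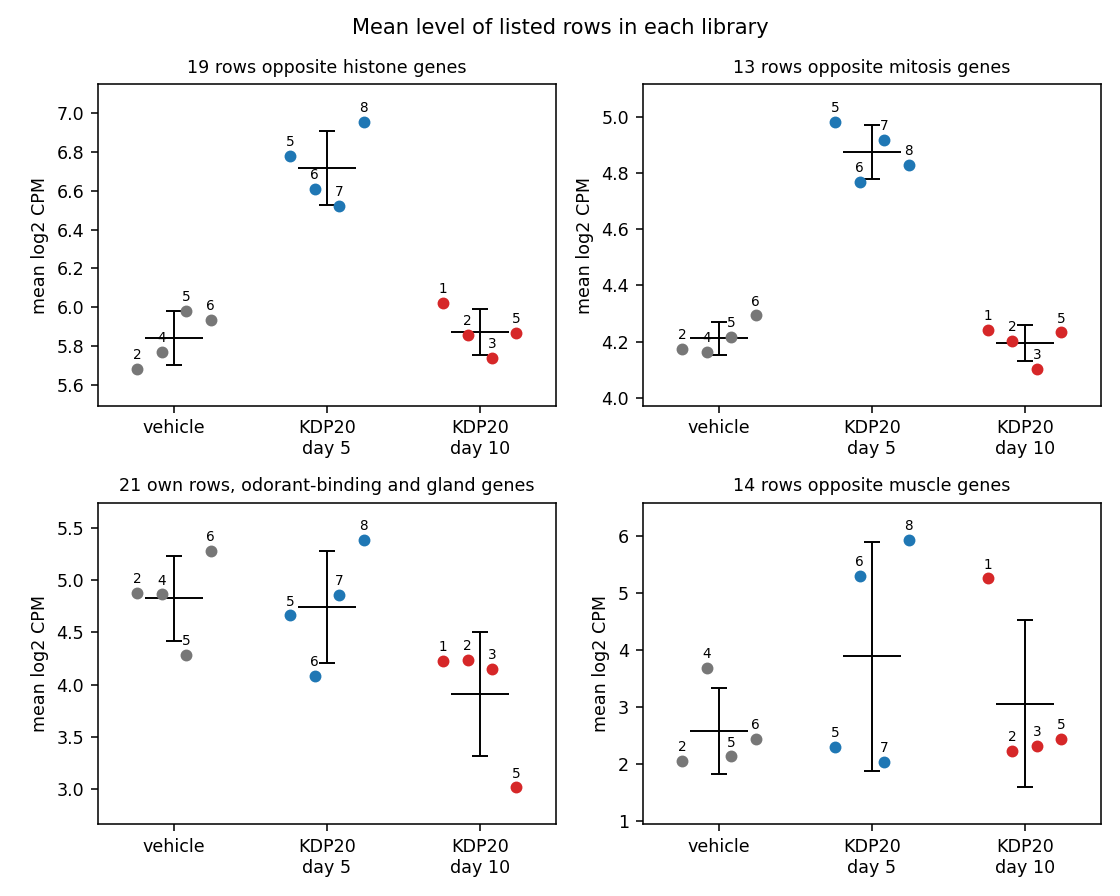
Mean log2 CPM of 4 sets of listed rows in each library, with replicate numbers, group means and SD bars. Rows opposite histone genes (5.74 to 6.02 at day 10, 6.52 to 6.96 at day 5) and mitosis genes (4.10 to 4.24, 4.77 to 4.98) separate the days, while rows opposite muscle genes are high in single libraries of each group.

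Rows opposite mitosis genes were lower as well. Of 60 listed genes, 13 opposite rows were tested, 6 were called lower and 0 higher (edgeR, with 7 lower and 1 higher at an unadjusted p under 0.05, 7 lower and 0 higher by DESeq2, 6 and 0 by limma-voom), and the median was -0.94. The mean level of the 13 rows was 4.24, 4.20, 4.10 and 4.23 log2 CPM at day 10, 4.98, 4.77, 4.92 and 4.83 at day 5 and 4.16 to 4.29 in vehicle. The day 10 libraries thus lay together below those of day 5, and replicate 1 alone gave a median of -0.82. With the CT010467.2 covariate the median was -0.78 and no row of the list was called.

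Exosc9, opposite the cyclin A2 gene Ccna2, held 28.3, 8.24, 18.8 and 12.6 CPM at day 10 and 48.4, 49.1, 69.6 and 65.5 CPM at day 5. Every day 5 library was above every day 10 library, and vehicle, at 31.9 ± 7.02 CPM, lay between the group means (log2 fold change -1.75, SE 0.27, edgeR adjusted p 0.000752). Cyclin A2 drives cells through DNA replication into mitosis. Its own row also fell, to 48.2 ± 16.5 from 74.4 ± 10.3 CPM (-0.62, edgeR adjusted p 0.0414), with day 10 replicate 1 at 71.5 CPM inside the day 5 range.

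Lcorl, opposite Ncapg, a subunit of the condensin complex that compacts chromosomes, held 11.3, 13.04, 12.6 and 15.4 CPM at day 10 and 31.9, 32.2, 30.8 and 36.8 CPM at day 5. The row fell by 1.33 on the log2 scale (SE 0.24, edgeR adjusted p 0.00223), and replicate 1 was the lowest of all day 10 libraries. From replicate 1 alone the value was -1.53, and with the covariate -1.58 (adjusted p 0.134). The own row of Ncapg behaved otherwise, at 63.3, 16.5, 25.1 and 26.3 CPM at day 10 against 60.5 to 77.5 at day 5, so that its call (-1.05, edgeR adjusted p 0.0121) came from replicates 2, 3 and 5.

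Rccd1, opposite the cytokinesis gene Prc1, whose product bundles the central spindle, held 72.5, 54.2, 64.7 and 52.0 CPM at day 10 and 127, 110, 139 and 127 CPM at day 5 (-1.04, SE 0.16, edgeR adjusted p 0.000752). The own row of Prc1 stood at 0.36 (91.2 ± 16.6 against 71.3 ± 15.05 CPM, edgeR adjusted p 0.208), and at 0.57 with a GC correction (adjusted p 0.0351). The row of Cdc23 lies opposite Kif20a, a kinesin gene of mitosis, and held 40.6, 22.7, 32.0 and 45.1 CPM against 81.1, 58.2, 70.5 and 79.1 (-1.03, SE 0.20, edgeR adjusted p 0.00338). In neither row did the groups overlap, and the day 10 means of 60.8 and 35.1 CPM lay beside 68.6 and 35.6 in vehicle. Cdc23 itself encodes a subunit of the anaphase-promoting complex, so this row cannot be assigned to one of the pair. Rows opposite Ckap2l, a spindle protein gene (-0.96), and Lbr, the lamin B receptor gene (the row Dnah14, -0.60), were called too. Exosc9, Lcorl and Rccd1 are rows of protein-coding genes as well, and likewise cannot be assigned to one of their pair.

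The remaining rows opposite mitosis genes were those of Knstrn (-0.99, edgeR adjusted p 0.0508), Kif4 (-0.94), Plk1 (-0.53), Tacc3 (-0.37) and Nusap1 (-0.23), and 2 opposite Ctcf (0.47 and 0.57), none of them called. By own rows, 2 of 18 mitosis genes were called lower, Ncapg and Ccna2, beside 5.49% over all tested rows. The median of these own rows, -0.40, became 0.02 with replicate 1 as the only day 10 library.

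DNA replication genes gave a mixed result. Of 14 opposite rows 2 were called lower, with a median of -0.29, near the 13.6% called lower over all rows opposite a protein-coding gene. Of 18 own rows 4 were called lower and 1 higher, with a median of 0.18, beside 5.49% and 4.66% over all rows. Gm10143, opposite the flap nuclease gene Fen1, held 216, 141, 161 and 172 CPM at day 10 and 258, 234, 239 and 281 at day 5 (-0.55, SE 0.15, edgeR adjusted p 0.0202). At the locus of the clamp loader subunit Rfc4, both the own row (-1.21) and the opposite row Eif4a2 (-0.996) fell, and they share their overlapping exons. Own rows of Ccne2, a cyclin of S phase entry (79.1 ± 23.0 against 137 ± 4.72 CPM, -0.78), and the replication helicase gene Gins2 (1359 ± 125 against 1903 ± 93.9 CPM, -0.49) also fell. Ccne2 lies opposite Ints8 and Gins2 opposite Gse1, so these rows may hold reads of those genes. Tk1, which makes thymidine phosphate and lies opposite Afmid, rose to 340 ± 17.6 from 240 ± 10.8 CPM (0.50, SE 0.12, edgeR adjusted p 0.0103), against the direction of the other calls in the list.

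**Figure D3:**
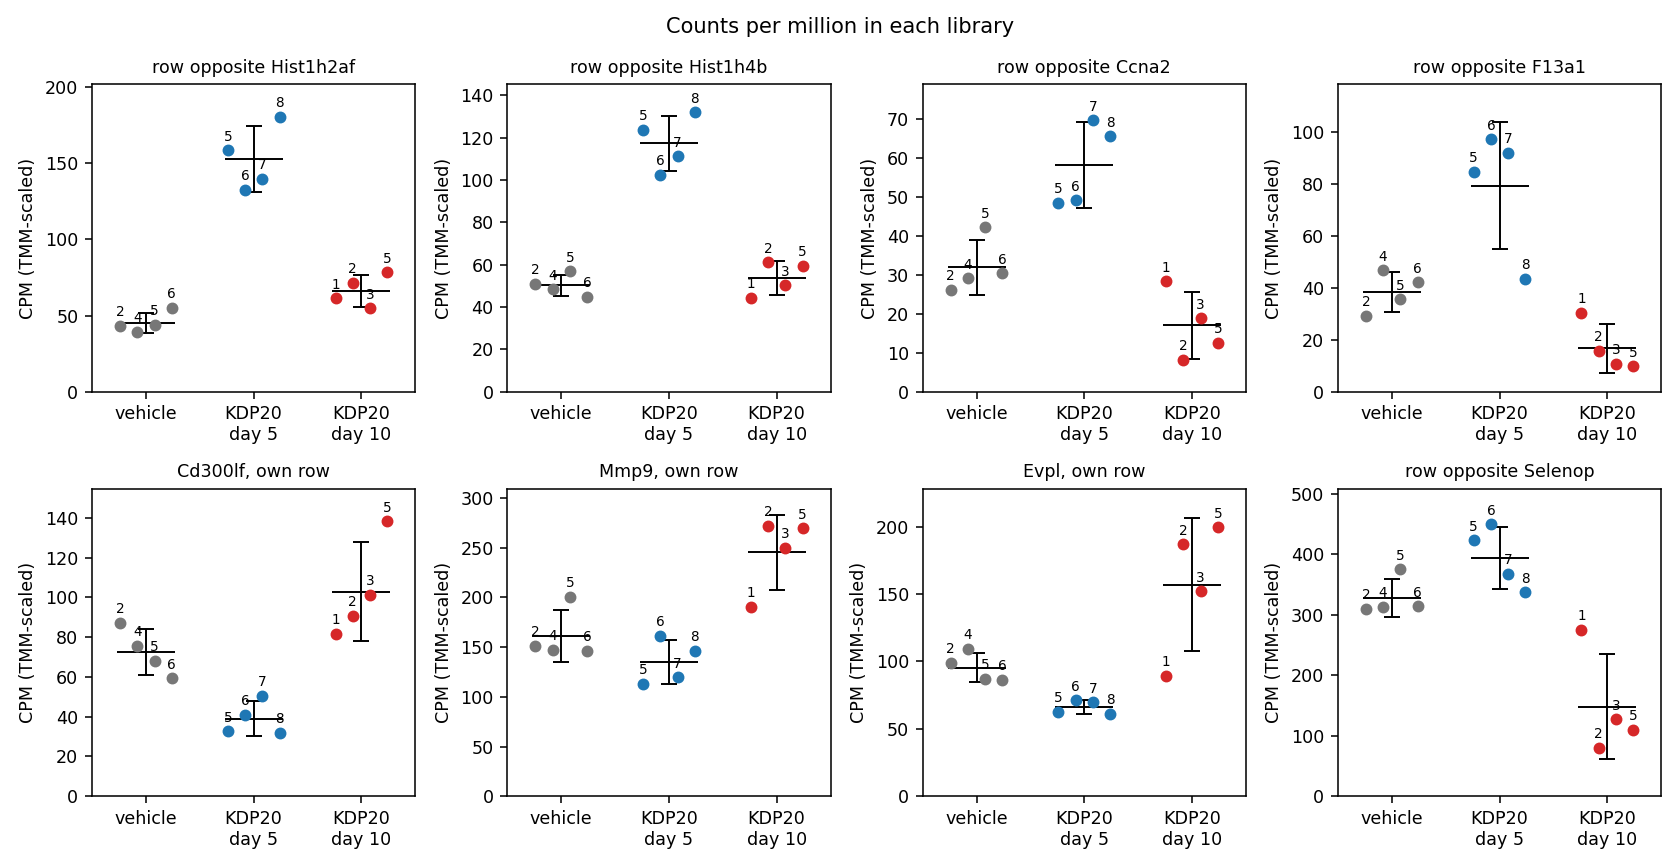
TMM-scaled CPM of 8 rows in each library, with replicate numbers, group means and SD bars. Rows opposite Hist1h2af, Hist1h4b and Ccna2 are lower in all 4 day 10 libraries than in any day 5 library, and for Evpl and the row opposite Selenop day 10 replicate 1 (89.5 and 276 CPM) lies nearest to day 5.

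Among immune genes, own rows of a few receptors and enzymes of myeloid cells were higher at day 10. Over all tested rows 4.66% were called higher and 5.49% lower. Cd300lf, an inhibitory receptor of myeloid cells, held 81.8, 90.6, 101 and 138 CPM at day 10 and 32.7, 40.9, 50.4 and 31.7 CPM at day 5 (1.40, SE 0.19, edgeR adjusted p 0.000368). All day 10 libraries were above all day 5 libraries, and vehicle stood between them at 72.5 ± 11.8 CPM. Vsir, a checkpoint receptor, rose to 105 ± 30.2 from 54.8 ± 8.56 CPM (0.94, edgeR adjusted p 0.00401), but from replicate 1 alone the value was 0.34, beside 1.07 for Cd300lf. These were the 2 calls among 9 own rows of macrophage, monocyte and dendritic cell genes, whose median was -0.01.

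Of 8 own rows of neutrophil genes 2 were called higher, beside 4.66% over all tested rows, and the median was 0.05. Mmp9, a matrix-degrading protease stored in neutrophil granules, held 190, 272, 250 and 270 CPM at day 10 and 113, 161, 120 and 146 at day 5 (0.86, SE 0.15, edgeR adjusted p 0.00222), the groups being apart. The histamine-making enzyme gene Hdc reached 255 ± 41.0 CPM, up from 184 ± 27.0 (0.47, SE 0.15, edgeR adjusted p 0.0494). In the other direction, Gm11505, opposite the granule enzyme gene Mpo, held 0 to 0.628 CPM at day 10 and 33.1, 13.9, 11.2 and 0.504 CPM at day 5. EdgeR called it lower (adjusted p 0.00373), although day 5 replicate 8 lay inside the day 10 range.

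Gm30489, opposite the macrophage transglutaminase gene F13a1 (chromosome 13, 36963239 to 36973329, plus strand), showed a wide gap between the days. It held 30.4, 15.8, 10.7 and 9.71 CPM at day 10 and 84.5, 97.2, 92.0 and 43.3 CPM at day 5, with vehicle at 38.4 CPM. The log2 fold change was -2.23 (SE 0.29, edgeR adjusted p 0.000346), -1.39 from replicate 1 alone, and -1.77 with the covariate (adjusted p 0.107). BE692007, opposite the macrophage surface gene Ms4a6c, held 68.4, 17.9, 23.9 and 17.7 CPM against 136, 84.2, 146 and 72.0 (-1.75, SE 0.34, edgeR adjusted p 0.00327), with replicate 1 close to the lowest day 5 library.

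Lymphocyte and antigen presentation genes gave 1 call in 14 own rows, a fall, beside 5.49% called lower over all tested rows. The call was Cd247, a chain of the T cell receptor complex that lies opposite Pou2f1. It held 378, 231, 220 and 240 CPM at day 10 and 435 to 464 CPM at day 5 (-0.75, SE 0.14, edgeR adjusted p 0.00308). The 10 opposite rows of the list gave 0 calls (edgeR, 1 higher and 2 lower at an unadjusted p under 0.05, 1 higher by DESeq2 and 0 by limma-voom). Among the largest falls of rows opposite a protein-coding gene was Gm11775, opposite Cd7, a lymphocyte receptor gene that is not in the list (1.01 ± 0.462 against 7.40 ± 4.26 CPM, -2.78, edgeR adjusted p 0.00661). No interferon response gene was called, in 8 own rows or 2 opposite rows (edgeR, 0 at an unadjusted p under 0.05, 0 by DESeq2 and limma-voom). Cytokine, chemokine and alarmin genes also gave 0 calls, in 15 own rows and 4 opposite rows, with 1 higher and 3 lower at an unadjusted p under 0.05, 1 lower by DESeq2 and 0 by limma-voom. Their own rows ranged from -0.998 to 0.80.

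Of 21 own rows of stratified and basal epithelium genes, 15 were above 0 and 6 below. By edgeR 4 were called higher and 0 lower, beside 4.66% and 5.49% over all rows (with 6 and 0 at an unadjusted p under 0.05, 4 and 0 by DESeq2 and limma-voom), with a median of 0.41. Evpl, which encodes the cornified envelope protein envoplakin, held 89.5, 187, 152 and 199 CPM at day 10 and 62.9, 71.2, 69.6 and 61.0 CPM at day 5 (1.24, SE 0.19, edgeR adjusted p 0.000752). The groups did not overlap, yet replicate 1, at 89.5 CPM, was nearer to day 5 than to its own group and gave 0.44 alone. Itgb4, the integrin that anchors basal cells, rose by 0.85 and gave 0.22 from replicate 1 alone. Dlk2 (0.93, opposite Abcc10) and Lor, the cornified envelope protein loricrin (93.8 ± 24.9 against 54.1 ± 6.65 CPM, 0.79, edgeR adjusted p 0.0267), were the other calls.

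Opposite rows of the same list gave 2 calls lower in 8, beside 13.6% over all rows opposite a protein-coding gene. Both lay opposite keratin genes. Gm11940, opposite Krt10, a keratin of differentiated layers, held 3.60, 0, 1.26 and 0 CPM at day 10 and 11.5, 25.5, 6.07 and 26.7 CPM at day 5 (-3.67, SE 0.75, edgeR adjusted p 0.00448). Gm44383, opposite Krt6b, fell by 1.99 on the log2 scale with overlap between the groups. The 8 opposite rows of the list had a median of -1.03. Epithelial junction genes gave 0 calls in 11 own rows (edgeR, 1 higher at an unadjusted p under 0.05, 0 by DESeq2 and limma-voom), and 1 in 2 opposite rows, Ulk4, opposite the beta-catenin gene Ctnnb1 (-0.55, edgeR adjusted p 0.0138). Day 5 replicates 6 and 8 were the high libraries in both rows (25.5 and 26.7 CPM opposite Krt10, 47.1 and 49.9 opposite Krt6b).

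Muc6, a gel-forming mucin, had the smallest p of rows with no opposite gene, and was chosen after its values were seen. It held 469, 835, 789 and 784 CPM at day 10 and 313, 319, 354 and 270 CPM at day 5, with vehicle at 447 CPM (1.19, SE 0.16, edgeR adjusted p 0.000346). Replicate 1 was again the lowest of the day 10 libraries, giving 0.58 alone. Muc5b, a gel-forming mucin of the airway, rose from 255 ± 19.4 to 336 ± 43.2 CPM (0.40, SE 0.13, edgeR adjusted p 0.0483). Muc20, opposite Muc4, fell (261 ± 75.4 against 412 ± 82.1 CPM, -0.66, edgeR adjusted p 0.0326). Gm15883, opposite Cyp2f2, the cytochrome P450 of airway secretory and olfactory supporting cells, was the most abundant of these rows. It held 17909 to 22068 CPM at day 10 and 23096 to 29564 CPM at day 5 (-0.45, SE 0.13, edgeR adjusted p 0.0244). Gm15318, opposite the trefoil factor gene Tff1, fell by 1.37 on the log2 scale (SE 0.33, edgeR adjusted p 0.0108).

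Of 21 own rows of odorant-binding and nasal gland genes 6 were called lower and 0 higher, with a median of -1.02 (edgeR, with 13 lower and 1 higher at an unadjusted p under 0.05, 5 lower by DESeq2 and 4 by limma-voom, 0 higher by either). Over all tested rows 5.49% were called lower. Obp2a, an odorant-binding protein, held 279, 209, 192 and 35.4 CPM at day 10 and 439, 209, 421 and 734 CPM at day 5 (-1.33, SE 0.37, edgeR adjusted p 0.0246). Day 10 replicate 5 was the lowest and day 5 replicate 8 the highest, and the groups met at 209 CPM. The lipocalin Lcn4 (14.4, 4.12, 5.65 and 0.571 CPM against 20.4, 14.9, 26.2 and 29.2, -1.82) and the secreted protein Bpifb3 (8.10 ± 3.31 against 26.7 ± 12.3 CPM, -1.74) were the called members without overlap.

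Bpifb6 (-1.64), the secretoglobin Scgb1c1 (-1.51) and the mucosal defence protein Dmbt1 (-1.09) were the other calls, each with overlap. The mean level of the 21 rows was 4.23, 4.24, 4.15 and 3.02 log2 CPM at day 10, 4.66, 4.08, 4.86 and 5.39 at day 5 and 4.28 to 5.28 in vehicle. Calls numbered 2 without day 5 replicate 8, 3 without day 10 replicate 5 and 9 without day 10 replicate 1. The part of those single libraries in the result was not tested further. The single opposite row of the list, C330022C24Rik, opposite Scgb1c1 and Urah, fell to 932 ± 406 from 1887 ± 206 CPM (-1.02, SE 0.20, edgeR adjusted p 0.00365).

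Olfactory neuron genes gave 1 call in 29 own rows, Kirrel3, a cell adhesion protein of sensory axons (133 ± 6.01 against 96.7 ± 20.2 CPM, 0.46, edgeR adjusted p 0.0442). Their median was 0.10, and over all tested rows 4.66% were called higher and 5.49% lower. Omp, the marker of mature neurons, held 12.6 to 26.2 CPM at day 10 and 12.99 to 31.7 CPM at day 5 and was not called. Gm10860, opposite Ebf2, a factor of olfactory neuron maturation, held 970, 639, 626 and 659 CPM at day 10 and 1124, 1087, 1243 and 1453 at day 5 (-0.76, SE 0.15, edgeR adjusted p 0.00395). It was the 1 call among 8 opposite rows of the olfactory neuron list, which had a median of -0.03 with 4 above 0. Of 10 own rows of stem and progenitor genes 0 were called (edgeR, with 1 higher and 2 lower at an unadjusted p under 0.05, 0 by DESeq2 and limma-voom). Notch3 was the single call among 14 own rows of supporting cell and Bowman gland genes (115 ± 20.2 against 68.0 ± 7.59 CPM, 0.75, edgeR adjusted p 0.00515).

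Calls among motile cilium genes went in both directions. Of 31 own rows, 3 were called higher and 2 lower, beside 4.66% and 5.49% over all rows. Opposite rows gave 2 calls higher in 15, beside 5.35% over all rows opposite a protein-coding gene. They were Lyrm1 and Gm34106, opposite the dynein assembly gene Zmynd10 (0.63). Tppp3, a microtubule-bundling protein, held 105, 124, 102 and 124 CPM at day 10 and 51.4, 69.7, 72.4 and 48.4 at day 5 (0.91, SE 0.18, edgeR adjusted p 0.00407), and replicate 1 alone gave 0.80. The dynein heavy chain genes Dnah9 (0.87) and Dnah10 (0.61) rose, while Dnah11 (opposite Cdca7l, -0.86) and Ccdc39 (opposite Ttc14, -0.74) fell. Lyrm1, opposite the dynein gene Dnah3, was at 386 CPM in day 10 replicate 1, 822 to 832 in the other day 10 libraries and 334 to 458 at day 5, so its call (0.79, edgeR adjusted p 0.00679) came from 3 libraries and replicate 1 alone gave -0.10.

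Own rows of extracellular matrix genes gave 3 calls higher in 30 and 0 lower, beside 4.66% and 5.49% over all rows, the matrix protein Hmcn2 (37.1 ± 11.5 against 12.9 ± 3.42 CPM, 1.52), Mmp9 and the thrombospondin Thbs1 (0.41). Opposite rows gave 3 calls lower in 11, with a median of -0.40, beside 13.6% called lower over all rows opposite a protein-coding gene. Syn3, opposite the protease inhibitor gene Timp3, held 4015, 1229, 1552 and 1603 CPM at day 10 and 3935, 5386, 4404 and 4529 at day 5 (-1.12, SE 0.24, edgeR adjusted p 0.00508). Replicate 1 lay inside the day 5 range, and alone gave -0.18. Gm48529, opposite the smooth muscle gene Tagln, held 1930, 1799, 1742 and 2154 CPM against 3160, 3252, 2786 and 2649 (-0.64, SE 0.13, edgeR adjusted p 0.00454) and kept -0.62 in replicate 1 alone. Gm13372, opposite the collagen gene Col5a1, fell by 0.73 on the log2 scale.

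Cartilage genes gave 1 call in 12 own rows, a fall, beside 5.49% called lower over all tested rows. The call was Acan, the aggrecan core protein (1.03, 5.49, 3.14 and 2.28 CPM against 10.2, 9.62, 12.1 and 8.06, -1.78, SE 0.49, edgeR adjusted p 0.0219). Its neighbour Hapln3, a hyaluronan link protein whose gene on the other strand of chromosome 7 ends beside the end of Acan, held 3.60, 0, 0 and 0 CPM at day 10 and 5.29 to 8.88 CPM at day 5 (-2.80, SE 0.79, edgeR adjusted p 0.0255).

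Opposite rows of antioxidant genes gave 3 calls lower in 11, with 4 rows above 0, beside 13.6% called lower over all rows opposite a protein-coding gene. Ccdc152, opposite Selenop, the plasma selenium carrier, held 276, 80.3, 127 and 110 CPM at day 10 and 423, 450, 368 and 337 CPM at day 5 (-1.40, SE 0.23, edgeR adjusted p 0.00123). Replicate 1 was the highest of the day 10 libraries and alone gave -0.52. Rows opposite the peroxide-reducing gene Prdx2 (-0.67) and the ferritin light chain gene Ftl1 (3576 ± 614 against 5041 ± 589 CPM, -0.50) were the other 2 calls. By own rows, 1 of 25 rose, the lactonase Pon2 (0.79), and 1 fell, Taldo1 of the pentose phosphate pathway (0.972 ± 0.863 against 5.02 ± 1.44 CPM, -2.23, edgeR adjusted p 0.0266). Over all tested rows 4.66% were called higher and 5.49% lower. Rows opposite the chaperone genes Hsp90b1 (1396 ± 246 against 2321 ± 273 CPM, -0.73) and Hspa1a (-0.75) fell. They were 2 of 10 opposite rows of the stress list, beside the same 13.6%, and 4 of the 10 were above 0. By own rows of that list 1 of 24 was called, Jund, a subunit of the AP-1 transcription factor (0.56, edgeR adjusted p 0.0321). Of 13 own rows of aryl hydrocarbon receptor and drug metabolism genes 0 were called (edgeR, with 3 higher and 1 lower at an unadjusted p under 0.05, 1 higher by DESeq2 and 0 by limma-voom). Opposite rows of that list gave 2 calls lower in 6, beside the same 13.6%. These lay opposite Ugt1a6a and other genes of glucuronide-forming enzymes (-0.62), and opposite Cyp2f2.

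Rows opposite genes of ribosomal proteins were called lower in 4 of 9, beside 13.6% over all rows opposite a protein-coding gene. The calls were those of Rpl15 (Nkiras1, also opposite Ube2e1, -0.77), Rpl5 (Dipk1a, -0.65), Rpl32 (Cand2, -0.63) and Rpl35 (Wdr38, -0.52). The median of the 9 rows was -0.41, and the own row of Rpl35 rose by 0.52 and overlaps its opposite row. Among long nuclear RNAs, Gm37376, opposite Malat1, rose from 18214 ± 895 to 28200 ± 5352 CPM (0.63, SE 0.14, edgeR adjusted p 0.00709). Ccdc107, opposite the small structured RNA gene Rmrp, rose to 5213 ± 1546 from 3220 ± 253 CPM (0.69), but was 3054 CPM in day 10 replicate 1, inside the day 5 range of 2865 to 3419. Snhg14, opposite the ubiquitin ligase gene Ube3a, held 603, 191, 278 and 204 CPM at day 10 and 692 to 763 CPM at day 5 (-1.19, SE 0.23, edgeR adjusted p 0.00327), and replicate 1 alone gave -0.27.

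Markers of skeletal muscle, which adjoins the nose, varied between libraries within both groups. The mean of 14 rows opposite muscle genes was 5.25 log2 CPM in day 10 replicate 1, 5.30 and 5.93 in day 5 replicates 6 and 8, and 2.04 to 2.44 in the other 5 KDP20 libraries, with vehicle at 2.05 to 3.69. Of these rows 2 were called lower, opposite the muscle hormone gene Ostn (-1.20) and the myosin-binding gene Mybpc1 (-1.70). That is near the 13.6% called lower over all rows opposite a protein-coding gene. A fit with day 5 replicates 5 and 7 as the only day 5 libraries was chosen after the values were seen. In it the rows opposite histone genes had a median of -0.87 with 7 of 19 called. The rows opposite mitosis genes had a median of -0.93 with 4 of 13 called. Day 10 replicate 1, also high in muscle rows, stayed in that fit, and the part of muscle content was not tested. By own rows the muscle list gave 2 calls higher in 10, beside 4.66% over all tested rows. These were the calcium pump Atp2a1 (opposite Rabep2, 0.95) and Casq1 (0.73). Of the remaining lists, own rows rose for the neuronal receptor Grin1 (578 ± 32.2 against 415 ± 20.01 CPM, 0.48) and the fat droplet gene Plin4 (0.71). At the Nos3 locus of endothelial nitric oxide synthase, both the own row (0.53) and the opposite row Gm15587 (0.99) rose. A row opposite the clock gene Cry2 rose by 0.42.

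The 10 protein-coding rows with the largest rise, among rows that had no opposite gene and no overlap between groups, had day 10 means of 6.13 to 37.1 CPM. Slc39a14, a zinc and iron importer, held 9.26, 5.49, 6.28 and 4.57 CPM at day 10 and 0.425, 1.92, 0 and 3.53 CPM at day 5 (2.13, SE 0.64, edgeR adjusted p 0.0346). Pcyt2 of phosphatidylethanolamine synthesis (2.08) and Ltbr, the lymphotoxin beta receptor (2.07), followed, with day 5 means of 2.63 and 1.42 CPM close to the 3-count limit. Cald1, an actin-binding protein, rose to 33.1 ± 15.03 from 10.5 ± 1.31 CPM (1.63, SE 0.33, edgeR adjusted p 0.00395), and replicate 1, at 14.4 CPM, gave 0.45 alone. Setbp1 (1.65), Pcsk4 (1.61), the secreted protease Htra3 (1.57), Elmo2 (1.56), Hmcn2 (1.52) and Nkpd1 (1.43) completed the set.

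The 10 largest falls by the same rule had day 10 means under 7 CPM. After Hapln3 came Ret, a growth factor receptor (1.74 ± 2.05 against 9.18 ± 5.76 CPM, -2.26), Taldo1 (-2.23) and Lrrc18, which held 4.12, 3.43, 3.14 and 2.28 CPM at day 10 and 13.6, 21.2, 15.9 and 9.07 at day 5 (-2.18, SE 0.42, edgeR adjusted p 0.00337). The sulfate transporter Slc26a2 (-2.07), Lyrm2 (-2.03), the heparan sulfate enzyme Hs3st3b1 (-1.92), the mitochondrial ribosome gene Mrpl57 (-1.83), the ubiquitin-like modifier Ubd (-1.83) and Lcn4 (-1.82) made up the rest. Ubd, which cytokines induce in many cells, held 10.3, 2.06, 3.77 and 7.42 CPM at day 10 and 15.3 to 25.7 CPM at day 5 (edgeR adjusted p 0.00395).

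Among rows opposite protein-coding genes, the 10 largest rises included Nphs1os, opposite the nephrin gene Nphs1, at 62.8, 211, 144 and 254 CPM against 48.9 to 58.2 at day 5 (1.64, SE 0.26, edgeR adjusted p 0.000904). Gm15917, opposite the corepressor gene Tle2 (1.64), and Arhgdig, opposite the G protein regulator gene Rgs11 (1.36), had the same pattern, in which replicate 1 was the lowest day 10 library and gave 0.22, 0.59 and 0.18 alone for the 3 rows. By contrast, Cdk19os, opposite the Mediator kinase gene Cdk19, held 50.9, 69.3, 57.7 and 70.8 CPM against 27.4 to 33.1 (1.01, SE 0.21, edgeR adjusted p 0.00449) and gave 0.72. Rows opposite St5 (1.65), Dpp4 (1.61), Gskip (1.30), Xkr6 (1.11), Pck2 (1.10) and Rprd1b (0.98) were the others. The largest falls not yet described were the rows opposite the aldose reductase gene Akr1b7 (-2.57), the exocrine gland peptide gene Esp8 (-2.04), the cartilage proteoglycan gene Epyc (-1.92) and Nif3l1 (-1.84). The last is the row of Orc2, a subunit of the replication origin complex, and held 5.14, 2.06, 5.65 and 5.71 CPM against 13.2, 22.6, 16.8 and 15.6.

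Over all 13181 rows, edgeR called 614 higher and 723 lower, 1337 in all, and 922 of these had no overlap between the groups. Calls were unevenly spread over the kinds of row. The 3981 rows opposite a protein-coding gene had 5.35% called higher and 13.6% lower, and the 4938 protein-coding rows with no opposite gene had 5.04% and 1.72%. Rows called higher had a median GC content of 55.1% and rows called lower 45.8%, with 50% over all, and the GC slopes of day 10 replicates 2, 3 and 5 were the highest of all libraries. With a GC correction edgeR made 988 calls, 475 higher and 513 lower, of which 808 were among the 1337. The 14 called rows opposite histone genes had a median GC content of 66.7%, while that of 4930558J22Rik, opposite Hist1h4b, was 42.8% and its value -0.88 with the correction.

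**Figure D4:**
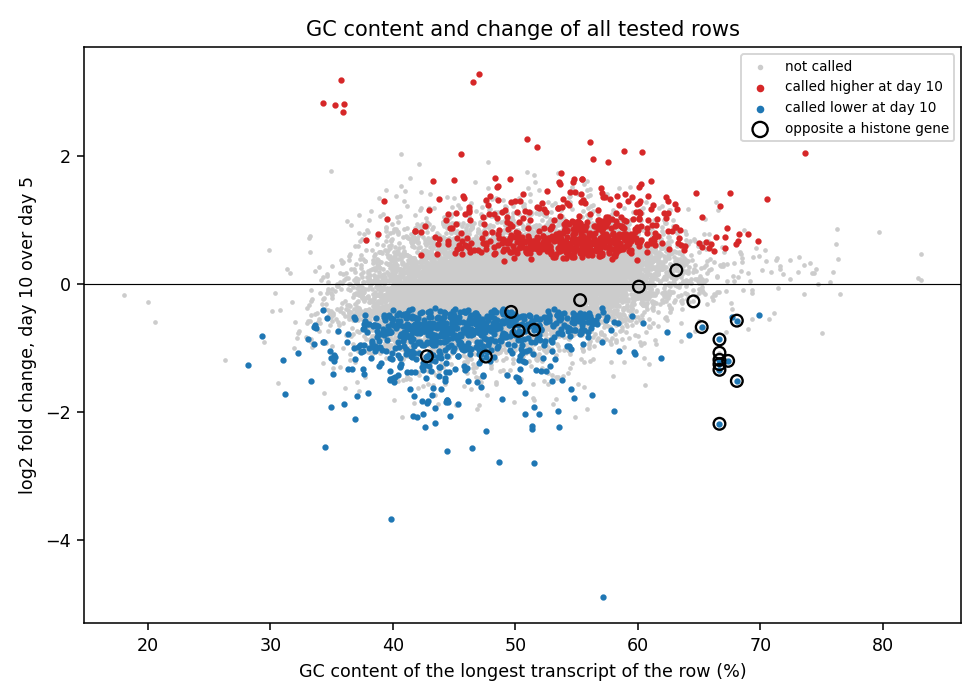
Log2 fold change of day 10 over day 5 (y) against GC content of the longest transcript in percent (x) for all tested rows, called rows in colour and rows opposite histone genes circled. Rows called higher centre on 55.1% GC and rows called lower on 45.8%, while the 14 circled rows called lower have a median of 66.7%.

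The number of calls rested on which libraries were in the fit. It was 2689 without day 10 replicate 1, 629 without replicate 2, 677 without replicate 3 and 623 without replicate 5, and 752 to 879 when 1 day 5 library was left out. A model that also held the share of CT010467.2 called 2 rows, and that share and the day go together in 3 of the 4 day 10 libraries. Of the 93 rows named by rule, 90 remained called in the same direction without replicate 1, 77 after GC correction and 2 with the covariate. Values from replicate 1 alone were nearer to 0 in 78 of the 93 rows, as for Evpl and the rows opposite Selenop and Ube3a. Rows opposite dividing-cell genes lay on both sides. Those opposite Hist1h2ag, Hist2h3b, Ccna2, Prc1 and Kif20a were nearer to 0 (-1.23, -0.68, -1.04, -0.79 and -0.83 against -2.18, -1.13, -1.75, -1.04 and -1.03 over all 4 libraries). Those opposite Hist1h2af, Hist1h4b, Hist1h2ak and Ncapg were not (-1.32, -1.41, -1.14 and -1.53 against -1.20, -1.13, -0.87 and -1.33). The rest of the rows that were not nearer to 0 were Tk1, Slc39a14, Ltbr, Lyrm2, Hs3st3b1, Mrpl57, Bpifb3, Acan and the rows opposite St5, Dpp4 and Esp8.

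**Figure D5:**
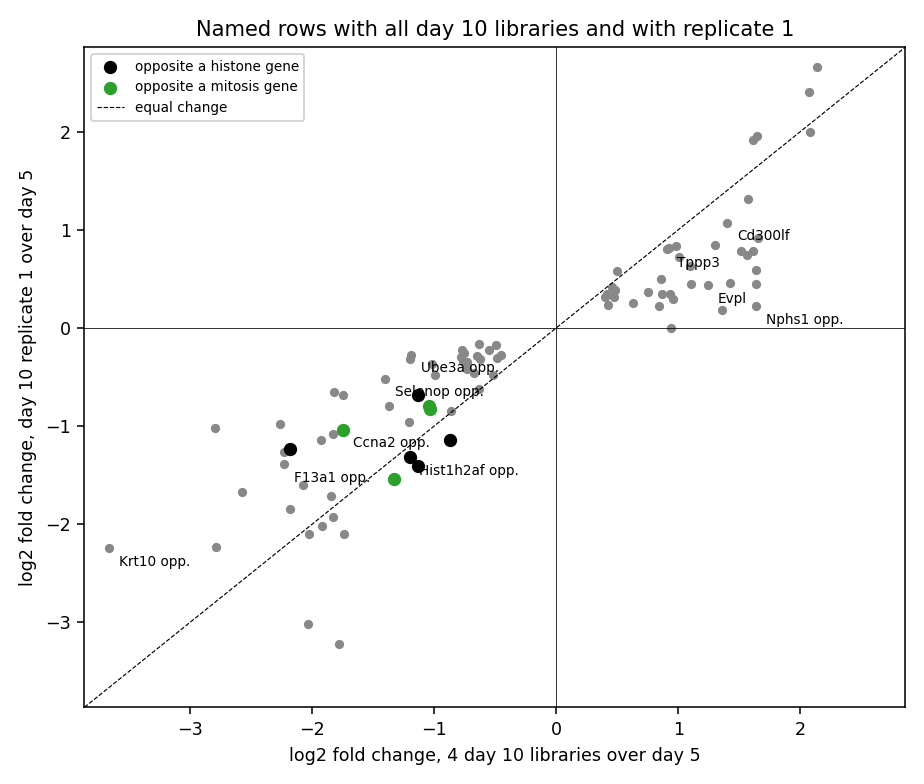
Log2 fold change of each named row with replicate 1 as the only day 10 library (y) against that over all 4 day 10 libraries (x), the dashed line marking equal change. Of the 93 rows, 78 lie nearer to 0 on the y axis than on the x axis, and rows opposite Hist1h2af, Hist1h4b and Ncapg are among those on the far side of the line.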

How the data were processed

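Total RNA of mouse nasal tissue was sequenced after a SMARTER mRNA-Seq kit, per the labels' protocols. Per the submitters' processing notes the authors used FastQC, Trim Galore, STAR, HTSeq and the mm10 build, and deposited raw counts per gene. Versions, annotation, counting mode and strandedness were not stated in the labels or notes used here.

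The 55487 rows were placed in GENCODE M21 by identifier (55227 found) with Python 3.11.15 and bedtools 2.31.1. All 12 libraries entered 1 fit in R 4.3.3, with filterByExpr, TMM and the edgeR 4.0.16 quasi-likelihood test by group, and the contrast day 10 minus day 5. The tested rows held 98.3% of counts. The fit was tested on simulated data. Replicate pairs differed by 3.70 to 22.6 times the counting variance, so none counted as 1 library. Intervals and limits cover counting error only.

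There were 28 gene lists with 954 entries, matched by the table's or the M21 symbol and read by own and by opposite rows. Members and lists were chosen with earlier results of these data known. Named rows were those called without overlap and with mean log2 CPM of at least 1: the 10 largest rises and falls among protein-coding rows with no opposite gene and among rows opposite a protein-coding gene, up to 4 members per list by p, and CT010467.2. Muc6, other called list members, and motifs were added after their values were seen. One called list member is not reported here.

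Alternatives were DESeq2 size factors and upper-quartile scaling, no filter, 10 CPM in 4 libraries, DESeq2 1.42.0, limma-voom (limma 3.58.1), the 8 KDP20 libraries alone, the CT010467.2 share as covariate or that row left out, a loess GC correction (span 0.5), each library left out, and a 200-base overlap. Day 10 replicate 1 alone and day 5 replicates 5 and 7 alone were added after seeing the data.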

Additional observations from a re-analysis of the deposited data

Results flagged for a closer look

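Of 196 groups of 4 libraries examined, 14 had 1 library far from the other 3 of its group (Dixon's test at the 95% level). All 14 were of named rows. Chance gives about 1 in 20 independent groups, but named rows were chosen by their values and share libraries, so that rate is a rough guide. Day 10 replicate 1 was the high library in 6 of them. It held 3.60 CPM of Hapln3 against 0 in the other 3. For BE692007, opposite Ms4a6c, it was at 68.4 CPM, and for Gm20628, opposite Hist2h3b, at 447 CPM. It was likewise at 970 CPM for Gm10860, opposite Ebf2, 378 CPM for Cd247, opposite Pou2f1, and 304 CPM for Nkiras1, opposite Ube2e1. Day 10 replicate 2 was high for Tgm2, opposite Rprd1b (30.2 CPM), and Bpifb3 (13.04 CPM), and low for Orc2, opposite Nif3l1 (2.06 CPM). Day 10 replicate 3 was high for Kirrel3 (142 CPM).

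At day 5, replicate 6 was high for Ret (17.8 CPM) and Notch3 (79.4 CPM), replicate 5 for Mrpl57 (8.49 CPM) and replicate 7 for Ccne2, opposite Ints8 (144 CPM).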

How the results depend on the processing

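When the share of CT010467.2 was a covariate, edgeR called 2 rows, 0 higher and 2 lower, with 2 of the rows opposite histone genes, 0 opposite DNA replication genes and 0 opposite mitosis genes. From day 10 replicate 1 alone it called 0 rows, 0 higher and 0 lower, and 0 in each of those lists (1142 rows at an unadjusted p under 0.05). The row CT010467.2 itself turned from 0.94 to -0.0676 and -0.00280 in those fits. From day 5 replicates 5 and 7 alone it called 243 rows, 86 higher and 157 lower, 7 opposite histone genes and 0 opposite DNA replication genes. With GC correction edgeR called 1 row opposite DNA replication genes. An overlap of at least 200 bases gave 5 called rows opposite histone genes and 1 opposite DNA replication genes, since the predicted microRNA rows are shorter than that. Leaving out each library gave 623 to 2689 calls, 263 to 1196 higher, 328 to 1493 lower, 11 to 15 lower opposite histone genes, 0 to 5 opposite DNA replication genes and 4 to 7 opposite mitosis genes. Upper-quartile scaling called 535 higher and 806 lower, and the count of calls under other scalings, filters, tools or the 8 KDP20 libraries alone was 963 to 1606, within 1.5 times the 1337. Of 93 named rows, 74 stayed called with DESeq2, 86 with limma-voom, 60 to 90 with a library left out and 35 from day 5 replicates 5 and 7. No paired analysis was possible because the groups share only replicate number 5. Depth of 1658420 to 2425920 counts limits rows under about 2 CPM.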
